A study of Mus musculus with 48 samples.

Results

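Epididymal white fat of C3H/HeOuJ mice fed a starch/oleate diet (9 samples) was compared with that of mice of the strain fed chow (8 samples), 17 of the 48 samples of the series. C3H/HeOuJ is an inbred strain with a working Tlr4, the receptor for bacterial lipopolysaccharide. The starch/oleate diet was a custom one in which carbohydrate gave 42% of calories, as starch, and fat gave 42%, as oleate, a monounsaturated fatty acid. Chow was a standard pelleted feed, and each diet was eaten freely for 6 months. A pair of further custom diets with the same carbohydrate and fat shares served for direct comparisons: sucrose/oleate (n = 9) keeps the fat and exchanges the sugar source, and starch/palmitate (n = 7) keeps the starch and exchanges the fat for a saturated one. The labels name no genetic change in any group. Chow differs from the custom diet in more than its starch and oleate, so the contrast with chow compares whole diets. RNA of the whole fat pad was read on the NanoString nCounter Mouse Immunology panel, on which a barcoded probe for each gene is bound to the RNA and counted without amplification. The panel held 547 endogenous genes, and the 491 whose counts averaged 10 or more in the 48 samples were tested.

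White adipose tissue stores fat in adipocytes, and their differentiation and lipid uptake depend on the nuclear receptor encoded by Pparg. In obesity, macrophages collect around dying adipocytes in crown-like structures, and many of them carry Itgax, Trem2 and Cd9, while macrophages resident in lean tissue carry markers such as Cd163. Mature adipocytes also secrete complement factor D, or adipsin, the product of Cfd, whose level in fat is known to fall in rodent obesity.

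Gene probe totals ran from 575868 to 755967 per library over the chow and starch/oleate groups, and negative control probes, which match no mouse RNA, had counts that averaged 7.40, with a highest of 21. Values below are counts divided by each library's factor from the geometric mean of the 14 reference genes, called scaled counts. Counts of different probes are not comparable as levels, so genes are compared only between diets. Of the markers listed for the adipocyte, Cfd, Pparg and Cd36 were on the panel and read far above the negative controls in every chow library, while Adipoq, Fabp4, Lep and Plin1 were not analysed here. Starch/oleate replicates 2 and 6 had high levels of the epithelium list, of which 6 of 11 genes were on the panel. The summed scaled count of the list ran from 1862 to 3566 on chow and from 1609 to 8684 on starch/oleate. None of these markers was at 0 in any library, but the lowest count in the table was 1, and whether counts of 0 had been set to 1 is not known. Chow replicate 4 held the highest Cfd and Pparg and the lowest Emr1, Itgax and Trem2 of its group. The labels do not say that each sample came from a separate animal, and p-values measure the spread between samples.

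The scaling bears on every direction below. Within their own fit, 9 of the 14 reference genes differed between the diets past the threshold of an adjusted p of 0.05. Hprt (log2 difference -0.81), Sdha (-0.71), Alas1 (-0.69) and G6pdx (-0.65), enzymes of purine salvage, respiration, haem synthesis and the pentose phosphate pathway, were lower on starch/oleate. Gusb (1.22), a lysosomal enzyme, Tubb5 (0.57), Rpl19 (0.32), Gapdh (0.23) and Oaz1 (0.10) were higher. The median log2 difference over the 491 genes was 0.34 with reference gene scaling, 0.06 with TMM scaling, which centres on the bulk of the genes, and 0.49 with positive control scaling. Gusb and Tubb5 were higher and Hprt, Sdha, Alas1 and G6pdx lower under each of the 3 scalings, while the log2 difference of Gapdh was -0.05 and that of Oaz1 -0.19 with TMM.

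**Figure D1:**
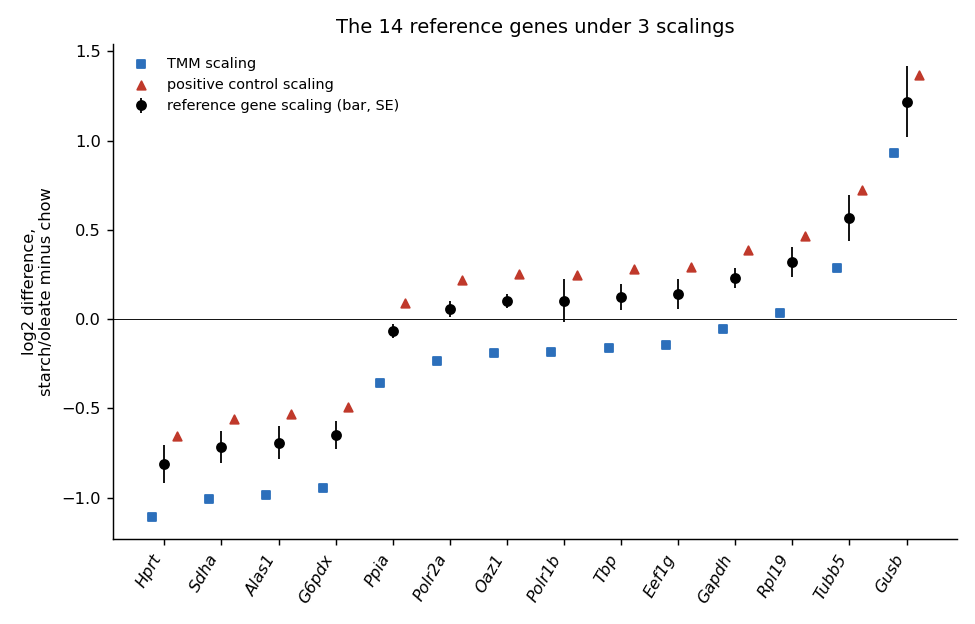
Log2 difference of each of the 14 reference genes, starch/oleate minus chow, under reference gene scaling (black circles, bars are standard errors), TMM scaling (blue squares) and positive control scaling (red triangles). Gusb sits highest at 1.22 and Hprt lowest at -0.81 under reference gene scaling; TMM lowers and positive control scaling raises all values together.

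Against chow, 296 of the 491 genes passed the threshold (60.3%), 237 higher (48.3%) and 59 lower (12%) on starch/oleate. With TMM scaling, the calls split into 164 higher and 120 lower, and with positive control scaling into 257 and 35. Positive control A over positive control B, RNAs added in known amounts, was 3.17 to 3.39 on chow and 3.11 to 3.28 on starch/oleate. The medians were 3.34 and 3.16. With this ratio as a covariate 213 genes were higher and 60 lower. A technical difference that goes with this ratio cannot be fully told apart from the diet in this contrast either. In 119 genes, 24.2% of those tested, the 9 starch/oleate libraries lay entirely above (96 genes) or entirely below (23 genes) the 8 chow libraries. The genes with the smallest p-values were Bcap31 and Cd1d1, both lower, and Tgfbr1, which was higher. Cfd had the largest fall and Defb1 the largest rise in log2 terms.

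**Figure D2:**
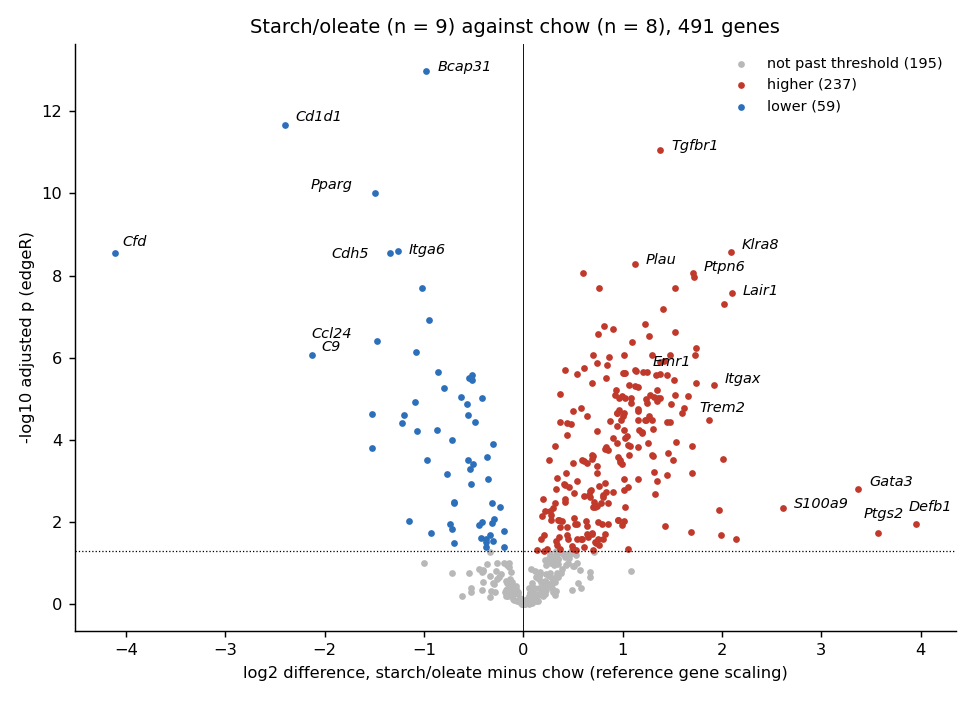
Each point is 1 of the 491 genes: its log2 difference, starch/oleate minus chow (horizontal), and minus log10 of its adjusted p from edgeR (vertical). The 237 red points are higher and the 59 blue points lower on starch/oleate; the dotted line marks an adjusted p of 0.05. Cfd lies far to the left and the reds outnumber the blues.

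The adipocyte genes Cfd and Pparg were lower. Scaled counts of Cfd ran from 18982 to 222161 on chow, with a median of 40102, and from 1089 to 7957 on starch/oleate, with a median of 3518. The highest starch/oleate library lay below the lowest chow library. Cfd fell by 4.11 on the log2 scale (SE 0.48, adjusted p = 2.8e-09), a 17.3-fold difference, and the log2 difference was -3.58 without chow replicate 4. Pparg gave a median of 883 on chow (lowest 633, highest 1826) and of 379 on starch/oleate (lowest 271, highest 421), again with no overlap, and its log2 difference was -1.49 ± 0.15 (SE), adjusted p = 9.7e-11. Cd36, the fatty acid transporter, averaged 75315 ± 8257 (SD, n = 8) on chow and 62649 ± 9636 (n = 9) on starch/oleate. These ranges overlapped, and its log2 difference of -0.27 (adjusted p = 0.098) missed the threshold, though with TMM scaling it was -0.57 (adjusted p = 7.1e-04). Cebpb, a transcription factor of early adipocyte differentiation, was at 0.07 ± 0.10 (SE), adjusted p = 0.54. Of the 4 adipocyte genes tested, 2 were lower and 2 did not pass, with a median of -0.88 against 0.34 over all genes. In bulk tissue, fewer cells of a type and less RNA per cell cannot be told apart.

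Cd1d1, which encodes the molecule that presents lipid antigens to natural killer T cells and is expressed by adipocytes as well as immune cells, had the lowest log2 difference of the antigen presentation lists. Its scaled counts ran from 5643 to 13758 on chow, with a median of 11433, and from 1051 to 2848 on starch/oleate, with a median of 2051. The chow group held 2 low libraries, and these too lay above every starch/oleate library. The log2 difference was -2.40 ± 0.21 (SE), adjusted p = 2.1e-12. Bcap31, a membrane chaperone of the endoplasmic reticulum, showed a median of 5976 on chow (lowest 4858, highest 6619) and of 3047 on starch/oleate (lowest 2731, highest 3241). The groups were narrow and apart, which gave a log2 difference of -0.98 ± 0.08 (SE), adjusted p = 1.0e-13, the smallest p of the comparison. Cd164, a sialomucin of endosomes and the cell surface, was also lower, by -1.02.

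Macrophage genes rose as a group: 19 of the 21 tested were higher, against 48.3% over all genes, and none was lower. Their median log2 difference was 1.33. Emr1, which encodes the pan-macrophage marker F4/80, ran from 721 to 2844 on chow, with a median of 1700.4, and from 4049 to 6401 on starch/oleate, with a median of 5151. Every starch/oleate library exceeded every chow library, and the log2 difference was 1.52 ± 0.26 (SE), adjusted p = 3.5e-06. Msr1 (1.73), a scavenger receptor, Fcgr4 (1.87) and Fcgr1 (1.45), receptors for immunoglobulin G, Tyrobp (1.52), the signalling adaptor of TREM2, and Cybb (1.31), the oxidase subunit of phagocytes, were among 12 of 21 genes of the list whose groups did not overlap, against 24.2% of all genes. Clec5a, an activating receptor of myeloid cells that signals through that adaptor, rose from 65 to 185 in median scaled count, at 1.52 ± 0.19 (SE), adjusted p = 2.0e-08. The general markers Csf1r (0.75), the receptor of the macrophage growth factor, and Itgam (0.95), an integrin chain, were also higher. Not past the threshold were Ccr2 (log2 difference -0.25), the receptor by which monocytes enter tissue, and Csf1 (0.10), the macrophage growth factor. With TMM scaling, 18 of the 21 were higher and Ccr2 was called lower.

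Of the 4 genes listed for lipid-associated macrophages 3 were higher, with a median of 1.44. Itgax had a median of 2073 on chow (lowest 169, highest 2808) and of 7107 on starch/oleate (lowest 4231, highest 9442). The lowest starch/oleate library was above the highest chow library. Its log2 difference was 1.92 ± 0.33 (SE), adjusted p = 4.6e-06, and 1.74 without chow replicate 4. Trem2, a receptor for lipids and lipoproteins, ran from 144 to 1421 on chow, with a median of 796, and from 1615 to 3009 on starch/oleate, with a median of 2645. These groups did not overlap either, at 1.66 ± 0.30 (SE), adjusted p = 8.6e-06. Cd9, a tetraspanin, was higher by 1.22 (adjusted p = 1.5e-07). Cd36, the last gene of the list, did not pass.

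Among 5 markers of resident macrophages 3 were lower, against 12% over all genes, and none was higher. Cd163, a haemoglobin scavenger receptor, showed a median of 884 on chow (lowest 625, highest 1499) and of 383 on starch/oleate (lowest 314, highest 526). Its groups did not overlap, and it was lower by -1.20 ± 0.23 (SE), adjusted p = 2.5e-05. Ccl24, an eosinophil-attracting chemokine, ran from 151 to 352 on chow, with a median of 230.4, and from 52.6 to 134 on starch/oleate, with a median of 84.6. It too separated the groups, at -1.48 ± 0.22 (SE), adjusted p = 4.0e-07. Cd209g, a C-type lectin, was lower at -1.07 (adjusted p = 6.1e-05). The other 2 did not pass: Marco, a scavenger receptor, at 0.01 ± 0.49 (SE), adjusted p = 0.98, and Il10 at 0.43. The median of the list was -1.07. One starch/oleate library, replicate 8, held 526 scaled counts of Marco against 67.3 to 285 in the others.

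**Figure D3:**
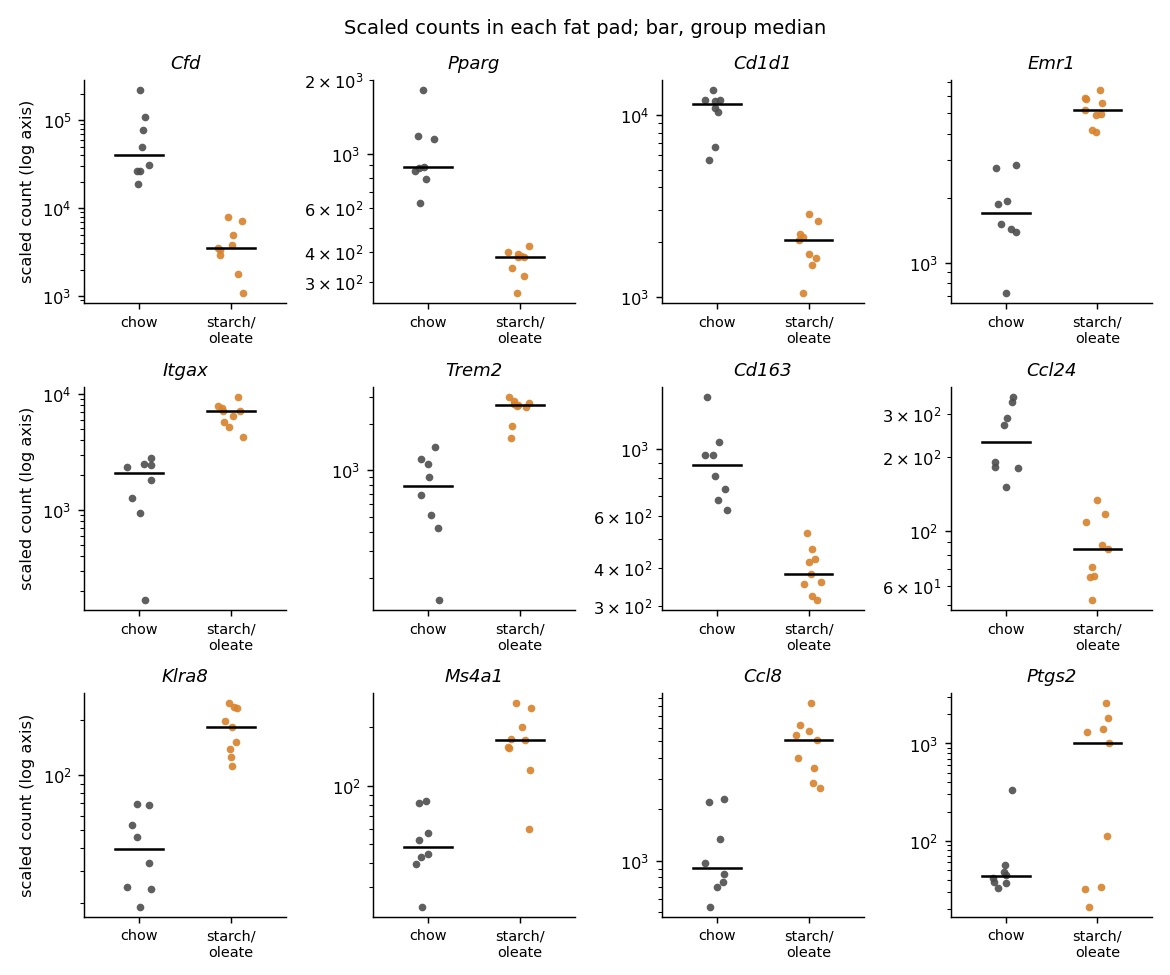
Scaled counts of 12 genes in each library on chow (grey, n = 8) and starch/oleate (orange, n = 9), on log axes; bars are group medians. Cfd, Pparg, Cd1d1, Cd163 and Ccl24 lie lower and Emr1, Itgax, Trem2, Klra8 and Ccl8 higher on starch/oleate with no overlap, while Ms4a1 and Ptgs2 overlap.

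Promoters of myeloid genes often hold the purine-rich PU box bound by the transcription factor PU.1. The letters GAGGAA, searched on both strands, were found in 28.3% of the 32851 windows of 300 bases (250 before to 50 after a transcription start) in the RefSeq promoter table of GRCm38.p6. Windows were found for 368 of the 491 tested genes: 177 of the 237 higher, 42 of the 59 lower and 149 of those past neither. A gene could have more than 1 window, and the shares are of windows. Of the windows of the tested genes, 34.5% of 455 held it. The share was 41% of 217 for genes that were higher on starch/oleate, 28% of 50 for those lower and 28.7% of 188 for those past neither. A match is a stretch of letters and not a measured site. The promoters of 3 rising myeloid genes that hold it are shown with that of Cfd, which does not hold it in this window, and the 4 were chosen after their values were seen. Capitals mark the motif, here on the reverse strand, so it reads TTCCTC. The windows are Trem2 at chr17:48346151-48346450 (+ strand), Fcgr4 at chr1:171018676-171018975 (+ strand), Clec5a at chr6:40585756-40586055 (- strand) and Cfd at chr10:79890603-79890902 (+ strand).
Trem2: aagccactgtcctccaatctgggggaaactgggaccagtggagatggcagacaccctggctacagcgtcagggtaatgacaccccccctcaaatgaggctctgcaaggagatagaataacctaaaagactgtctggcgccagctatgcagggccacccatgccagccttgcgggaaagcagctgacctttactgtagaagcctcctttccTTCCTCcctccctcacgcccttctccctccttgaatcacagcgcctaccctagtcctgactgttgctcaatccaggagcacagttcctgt
Fcgr4: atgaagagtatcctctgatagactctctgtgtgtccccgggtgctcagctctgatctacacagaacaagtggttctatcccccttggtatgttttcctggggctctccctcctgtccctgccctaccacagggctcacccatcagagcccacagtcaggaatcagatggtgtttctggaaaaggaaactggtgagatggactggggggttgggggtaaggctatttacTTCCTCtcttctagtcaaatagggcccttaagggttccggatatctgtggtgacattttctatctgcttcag
Clec5a: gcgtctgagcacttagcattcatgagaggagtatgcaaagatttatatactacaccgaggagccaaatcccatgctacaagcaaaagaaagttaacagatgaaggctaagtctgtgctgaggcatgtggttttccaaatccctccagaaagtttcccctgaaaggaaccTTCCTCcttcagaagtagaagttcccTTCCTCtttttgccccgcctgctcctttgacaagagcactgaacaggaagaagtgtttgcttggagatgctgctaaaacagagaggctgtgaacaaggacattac
Cfd: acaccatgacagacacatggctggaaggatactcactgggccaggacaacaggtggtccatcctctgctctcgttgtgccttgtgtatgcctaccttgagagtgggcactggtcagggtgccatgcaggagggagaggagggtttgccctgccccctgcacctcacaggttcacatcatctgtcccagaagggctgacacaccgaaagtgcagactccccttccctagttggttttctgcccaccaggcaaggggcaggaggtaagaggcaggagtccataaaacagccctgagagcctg

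Genes of transforming growth factor beta signalling and matrix turnover included Tgfbr1, with the third smallest p of the comparison. Tgfbr1, the type I receptor, ran from 664 to 1299 on chow, with a median of 988, and from 1853 to 3278 on starch/oleate, with a median of 2628. The groups did not overlap, at 1.38 ± 0.13 (SE), adjusted p = 8.8e-12. Plau, the urokinase that activates plasminogen, gave a median of 1157 on chow (lowest 951, highest 1398) and of 2417 on starch/oleate (lowest 2059, highest 3136). Its 9 starch/oleate values were all above the chow values, with a log2 difference of 1.12 ± 0.13 (SE), adjusted p = 5.3e-09. Lair1, an inhibitory receptor for collagen on leukocytes, was higher by 2.10 ± 0.27 (SE), adjusted p = 2.6e-08, the largest rise of the list. The ligand Tgfb1 (1.01) and the hyaluronan receptor Cd44 (1.19) also rose, whereas the ligand Tgfb3 (-0.56), the signal transducer Smad5 (-0.31) and the matrix protein Vtn (-1.22) were lower. Of 18 genes 9 were higher, near the 48.3% over all genes, 3 were lower and 6 were not past the threshold. The median was 0.38, close to the median over all genes, and with TMM 6 were higher and 5 lower. Fn1, which encodes fibronectin, was among those not past it, at 0.06 ± 0.22 (SE), adjusted p = 0.83.

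Of 10 endothelial and adhesion genes, 4 were lower and 3 higher, against 12% lower and 48.3% higher over all genes. Cdh5, the cadherin of endothelial junctions, ran from 578 to 1119 on chow, with a median of 832, and from 247 to 420.4 on starch/oleate, with a median of 312. Its log2 difference was -1.35 ± 0.16 (SE), adjusted p = 2.8e-09, with no overlap. Pecam1 (-0.71), Icam2 (-0.86) and the transcription factor Ets1 (-0.63) were lower as well. Itga6, the laminin receptor chain found on endothelium and other cells, had a median of 2081 on chow (lowest 1498, highest 2316) and of 775 on starch/oleate (lowest 529, highest 1276). It separated the groups at -1.26 ± 0.14 (SE), adjusted p = 2.5e-09. Within the same list Icam1 (0.84) and Vcam1 (0.64), adhesion molecules induced in inflammation, were higher, as was Selplg (0.80), a leukocyte ligand of selectins with counts near the negative controls, and Cd34 was at -0.01 (adjusted p = 0.97). The list's median was -0.08, and 0.09 with positive control scaling.

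**Figure D4:**
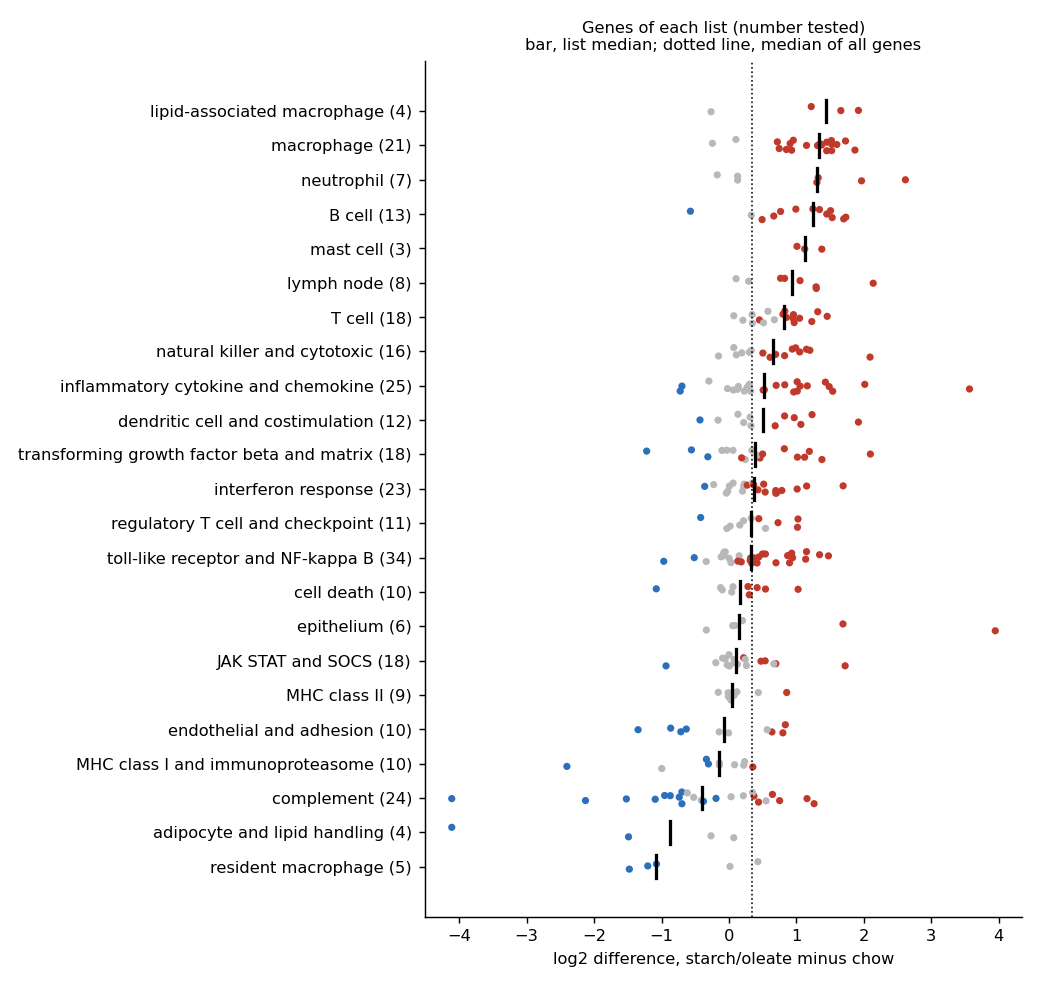
Log2 difference, starch/oleate minus chow, of every tested gene in each of 23 lists; red points are higher and blue points lower past the threshold, grey points did not pass. Black bars are list medians and the dotted line is the median of all 491 genes at 0.34; the lipid-associated macrophage list lies highest at 1.44 and the resident macrophage list lowest at -1.07.

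B cell genes were higher in 11 of 13 cases, against 48.3% over all genes, with a median of 1.24. Ms4a1, which encodes CD20, gave a median of 48.5 on chow (lowest 23.9, highest 83.9) and of 172 on starch/oleate (lowest 60, highest 265). One starch/oleate library lay within the chow range, and the log2 difference was 1.70 ± 0.42 (SE), adjusted p = 6.5e-04. Cd22, an inhibitory co-receptor, ran from 19.1 to 100.2 on chow, with a median of 63.7, and from 124 to 253 on starch/oleate, with a median of 198. Its groups did not overlap (1.73 ± 0.26 (SE), adjusted p = 5.7e-07). The receptor chain Cd79b (1.45) and the adaptor Blnk (1.53), which macrophages express as well, also rose. Cd81, a tetraspanin found on most cells, was the gene that was lower (-0.57), and the plasma cell receptor Tnfrsf17 did not pass (0.33, adjusted p = 0.051).

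T cell genes were higher in 11 of 18 cases, against 48.3% over all genes, and lower in none, with a median of 0.81. Cd3e, a chain of the T cell receptor complex, had a median of 19.7 on chow (lowest 7.97, highest 29.7) and of 49.6 on starch/oleate (lowest 28.8, highest 89.8). The ranges overlapped narrowly, and the log2 difference was 1.32 ± 0.33 (SE), adjusted p = 6.1e-04. Cd4 rose by 1.23 and Cd8b1 by 1.46. Cd8a was called higher as well (0.96, adjusted p = 0.0087), but its chow mean of 7.20 is at the level of the negative controls. Cd2, carried by most T cells, was at 0.07 (adjusted p = 0.77). Foxp3, the transcription factor of regulatory T cells, was at 0.54 ± 0.29 (SE), adjusted p = 0.1. Among the 11 regulatory and checkpoint genes, 4 were higher, a smaller share than the 48.3% over all genes, and Il2ra was lower (-0.42). The higher ones included Pdcd1 (1.02) and Tigit (1.02), but Tigit on chow ran from 5.96 to 13.5, near the negative controls. In the fit that holds the ratio of positive controls as covariate, 1 of the 11 was higher. A fit that accounts for the lymph node genes described below called 0 of the 11 higher.

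Of 16 natural killer and cytotoxic genes, 10 were higher and none lower, with a median of 0.65. Over all genes 48.3% were higher. With TMM, and likewise with that ratio of positive controls as covariate, 6 of the 16 were higher. Klra8, a probe of the multigene Ly49 receptor family whose copies differ between strains, so that the copy read cannot be told, ran from 19.1 to 69.4 on chow, with a median of 39.5, and from 112 to 247 on starch/oleate, with a median of 184. The groups were apart, at 2.09 ± 0.24 (SE), adjusted p = 2.7e-09. Xcl1, a chemokine of natural killer and CD8 T cells, was higher by 1.20, the activating receptor chain Klrk1 by 1.15, the granule protease Gzmb by 1.05 and perforin, Prf1, by 0.82, the last 2 from chow means of 8.47 and 10.1, close to the negative controls. Ifng itself stayed near the negative controls in both groups, with a median of 10.7 on chow (lowest 5.68, highest 14.3) and of 8.14 on starch/oleate (lowest 3.11, highest 14.1). Il12rb2 (1.71), a chain of the interleukin 12 receptor, Slamf7 (2.02), a receptor of natural killer and myeloid cells, and Ptpn6 (1.72), the phosphatase SHP-1 of blood cells, were among the clearest rises of the panel, with adjusted p of 8.8e-09, 5.0e-08 and 1.1e-08.

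Genes of lymph nodes, small ones of which lie in some fat pads, rose beside the lymphocyte genes. Of the 13 listed genes 9 were on the panel, none at 0, and their summed scaled count ran from 370 to 1256 on chow and from 1471 to 2319 on starch/oleate, without overlap. Of the 8 tested, 6 were higher, against 48.3% over all genes. Cxcl13, the chemokine of B cell follicles, was higher by 2.14 ± 0.84 (SE), adjusted p = 0.026, and without chow replicate 6 its adjusted p was 0.051. Ccl19, a chemokine of the T cell zone, did not pass (0.29, adjusted p = 0.39). With the mean log2 level of this list in the fit as a covariate, 4 of 13 B cell genes, 3 of 18 T cell genes, 4 of 16 natural killer genes, 13 of 21 macrophage genes, 3 of 4 lipid-associated macrophage genes, 0 of 7 neutrophil genes, 3 of 12 dendritic cell genes and 3 of 25 cytokine and chemokine genes were called higher, and Cfd and Pparg kept their calls. The list shares Cxcr5 with the B cell list and Ccr7 with the dendritic cell list, and its level differed between the groups. The part of lymph node tissue in these results was not tested beyond that fit.

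The 3 mast cell genes on the panel that were tested all rose. Fcer1a, the binding chain of the receptor for immunoglobulin E, gave a median of 30.8 on chow (lowest 20.1, highest 58.8) and of 87.6 on starch/oleate (lowest 45.1, highest 144). One chow library fell within the starch/oleate range, and the log2 difference was 1.38 ± 0.22 (SE), adjusted p = 1.3e-06. Kit, the receptor of stem cell factor, rose by 1.01 and Il1rl1, the interleukin 33 receptor, by 1.12, and Il33 itself was higher by 0.70. Of 12 dendritic cell and costimulation genes 6 were higher, near the 48.3% over all genes, among them Irf8 (1.07), the transcription factor of conventional dendritic cells and macrophages, and the maturation marker Cd83 (1.23), while Irf4 was lower (-0.43). Cd86 did not pass (0.33, adjusted p = 0.063), and Cd80 rose by 0.69.

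Of 7 neutrophil genes 4 were higher, against 48.3% over all genes. S100a9 and Cxcr2 were higher through few libraries and Csf3r and Il1r2 in every library. S100a9, a calcium-binding protein of neutrophils, had a median of 45 on chow (lowest 38.4, highest 68) and of 52.5 on starch/oleate (lowest 18.6, highest 1456). Starch/oleate replicate 1 held 1456 and replicate 6 held 673, and 5 of the 9 libraries lay within or below the chow range. The log2 difference was 2.62 ± 0.80 (SE), adjusted p = 0.0045, and 1.68 (adjusted p = 0.049) without replicate 1. Cxcr2, the neutrophil chemokine receptor, was called higher at 1.97, but at 1.21 without replicate 1 it no longer passed (adjusted p = 0.062). Its partner gene S100a8 was at 0.13 ± 0.44 (SE), adjusted p = 0.81. Csf3r, the receptor of granulocyte colony-stimulating factor, was higher by 1.30 with no overlap between the groups. Il1r2, the decoy receptor of interleukin 1, was higher by 1.32 ± 0.37 (SE), adjusted p = 0.002, and its groups met without overlapping, with a highest chow value of 31.9 and a lowest starch/oleate value of 32.1. Both were called with each library left out in turn.

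Among cytokines and chemokines, 14 of 25 were higher and 2 lower, near the 48.3% higher over all genes, with a median of 0.52. Ccl8, a monocyte-attracting chemokine, ran from 539 to 2300.1 on chow, with a median of 905, and from 2666 to 8319 on starch/oleate, with a median of 5105. All starch/oleate libraries exceeded all chow libraries, at 2.01 ± 0.47 (SE), adjusted p = 2.8e-04. Il1rn, which blocks the interleukin 1 receptor, gave a median of 475 on chow (lowest 75.1, highest 969) and of 1602 on starch/oleate (lowest 1011, highest 2182). It was higher by 1.54 ± 0.33 (SE), adjusted p = 1.1e-04, also without overlap. Ccl3 (1.49), Ccl4 (1.16) and Ccl5 (0.83), chemokines of monocytes and T cells, and Tnf (1.01) rose. Ccl2, the chief monocyte chemokine of fat, was at 0.52 ± 0.23 (SE), adjusted p = 0.049, and Il1b at 1.06 ± 0.46 (SE), adjusted p = 0.046. Both were highest in starch/oleate replicate 1, and without it their log2 differences of 0.39 and 0.53 did not pass (adjusted p of 0.15 and 0.29). Each lost its call in 9 of the 17 fits that left out 1 library. Ccl2 also lost it under 6 of the 11 alternatives, and Il1b lost it under 3 and turned in direction under 1 more. Il6 was near the negative controls on both diets, with a log2 difference of -0.30. Nos2 (-0.70), the inducible nitric oxide synthase, and Lif (-0.72) were lower.

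Some interferon response genes were higher and others did not pass the threshold. Cxcl10, a chemokine induced by interferons, had a median of 16.1 on chow (lowest 11, highest 28) and of 48.7 on starch/oleate (lowest 34.2, highest 128). The groups did not overlap, at 1.69 ± 0.37 (SE), adjusted p = 1.4e-04. Irf5 (1.15), a transcription factor of inflammatory macrophages, and Tmem173 (1.01), the adaptor STING, were higher too. Yet Cxcl9, a chemokine induced by interferon gamma, was at -0.02 ± 0.36 (SE), adjusted p = 0.97. The receptor chain Ifngr1 was lower, at -0.36. In all 12 of 23 genes were higher and 1 lower, near the 48.3% higher over all genes. The median was 0.37, near the 0.34 over all genes, and with TMM 5 were higher and 4 lower.

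Toll-like receptor and NF-kappa B genes were higher in 21 of 34 cases and lower in 2, against 48.3% and 12% over all genes. The list's median of 0.32 was near the 0.34 over all genes, and with TMM 10 were higher and 10 lower. Tlr1 (1.48), Tlr2 (1.14) and Tlr8 (1.34), with the lipopolysaccharide co-receptors Cd14 (1.15) and Ly96 (0.93), were higher. Tlr4 was at 0.33 ± 0.13 (SE), adjusted p = 0.029 and did not pass with TMM. Tlr5, the flagellin receptor, was lower (-0.97), as was the kinase Irak2 (-0.51). Tnfaip3, the ubiquitin-editing brake on NF-kappa B, ran from 238 to 335 on chow, with a median of 290.5, and from 376 to 653 on starch/oleate, with a median of 553. It was above chow in every starch/oleate library (0.90 ± 0.13 (SE), adjusted p = 2.0e-07). Nfkb1 (0.37) and Myd88 (0.44) were higher with reference gene scaling and missed the threshold with TMM. The 18 JAK, STAT and SOCS genes had a median of 0.10, which was -0.18 with TMM. Of them 5 were higher, a smaller share than the 48.3% over all genes, and 1 was lower. With TMM 2 were higher and 6 lower. Stat3 did not pass (0.00 ± 0.07 (SE), adjusted p = 0.99), and with TMM it was called lower at -0.29.

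Complement genes changed in both directions, within the classical as within the alternative pathway. The classical pathway recognition chains C1qa and C1qb, made mostly by macrophages, were higher by 1.16 and 1.26, both without overlap, with C1qa running from 3475 to 4633 on chow, with a median of 3814, and from 7265 to 11322 on starch/oleate, with a median of 8149. The alternative pathway's Cfb gave a median of 3293 on chow (lowest 2399.9, highest 4446) and of 1583 on starch/oleate (lowest 1213, highest 2179). It was lower by -0.95 ± 0.13 (SE), adjusted p = 1.2e-07, beside the fall of Cfd given above, whereas its stabiliser properdin, Cfp, was higher (0.64). C2 (-0.87) of the classical pathway and C4a (-0.70) were lower, as were C6 (-0.74), C8g (-1.52) and C9 (-2.13) of the membrane attack complex. C9 averaged 8.62 on starch/oleate, at the level of the negative controls, so its fall is bounded by background. C3, the hub of the cascade, was at 0.03 ± 0.16 (SE), adjusted p = 0.88, with a median of 7475 on chow (lowest 6131, highest 8985) and of 7157 on starch/oleate (lowest 6557, highest 8981). Its groups overlapped almost fully. In total 11 of 24 genes were lower and 6 higher, against 12% lower and 48.3% higher over all genes, and the median was -0.39. With TMM 11 were lower and 2 higher, with positive control scaling 7 and 6, and with the lymph node covariate described above 9 and 0.

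Few antigen presentation genes passed the threshold beside Cd1d1. Of 9 MHC class II genes 1 passed, H2-DMb2, which was higher by 0.86 (adjusted p = 0.0035). Cd74, the invariant chain, averaged 16892 ± 3508 (SD, n = 8) on chow and 17473 ± 4616 (n = 9) on starch/oleate. H2-Ab1 was at 0.08 ± 0.23 (SE), adjusted p = 0.78, and the class II transactivator Ciita at -0.01. The list's median was 0.05, and -0.25 with TMM. Among 10 class I and proteasome genes, B2m (-0.33) and Psmb7 (-0.30) were lower together with Cd1d1, and Psmb10, a subunit of the immunoproteasome, was higher (0.35). With TMM none of the 10 was higher and 6 were lower. H2-Q10, a secreted class I molecule in mice, was at -0.996 ± 0.53 (SE), adjusted p = 0.099, and it was called lower under 5 of the 11 alternatives, TMM and DESeq2 among them.

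Of 10 cell death genes, 5 were higher and 1 was lower, near the 48.3% higher over all genes, with a median of 0.17. With TMM 2 were higher and 4 lower, with a median of -0.12. Casp1, the inflammasome protease, had a median of 698 on chow (lowest 402, highest 967) and of 1448 on starch/oleate (lowest 1107, highest 1707). It was higher by 1.03 ± 0.19 (SE), adjusted p = 9.6e-06 without overlap. Fas, the death receptor, was the lower one, at -1.08 ± 0.16 (SE), adjusted p = 7.2e-07. Tfrc, the transferrin receptor through which cells take up iron, was higher by 1.29 ± 0.20 (SE), adjusted p = 8.8e-07, and Npc1, which exports cholesterol from lysosomes, by 0.85 ± 0.13 (SE), adjusted p = 1.5e-06.

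A few of the largest differences rested on some of the libraries. Ptgs2, which encodes cyclooxygenase-2, ran from 33.1 to 330.2 on chow, with a median of 43.2, and from 21.1 to 2575 on starch/oleate, with a median of 1009.9. It was 1009.9 or more in starch/oleate replicates 1 to 5, at 112 in replicate 6 and at or below 33.8 in replicates 7 to 9, so the groups overlapped at 3.57 ± 1.31 (SE), adjusted p = 0.018. Gata3, a transcription factor of type 2 lymphocytes and of several epithelia, was at 3.37 ± 0.91 (SE), adjusted p = 0.0016, and at 1.74 (adjusted p = 0.036) without the libraries set apart by the epithelium list. Defb1 (3.95 ± 1.35 (SE), adjusted p = 0.011), an epithelial defensin, had 2731 and 2632 scaled counts in starch/oleate replicates 2 and 6 against 10.1 to 266 in the others. Without the set-apart libraries, the log2 differences of Defb1 (0.39), Ceacam1 (0.18 in place of 1.69) and Cd24a (0.22 in place of 1.99) did not pass. The other epithelium genes, Pigr (0.09), Clu (-0.34), Muc1 (0.20) and Defb14 (0.06), were not past the threshold. Without the set-apart libraries Pigr was called lower at -1.68 (adjusted p = 0.027). In this contrast starch/oleate replicates 2 and 6 were left out and no chow library. They were chosen by the level of the list that holds Defb1, Ceacam1 and Pigr, so the changes of these genes are partly built in.

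Starch/oleate was next set directly against sucrose/oleate, the diet with its fat. Of the 491 genes 74 passed (15.1%), 49 higher (9.98%) and 25 lower (5.09%) on starch/oleate, with a median difference of 0.14. With TMM scaling 34 were higher and 49 lower, and with positive control scaling 13 and 14. The positive control ratio was 2.92 to 3.07 on sucrose/oleate, below the range of starch/oleate. The labels name no assay run, and a technical difference that goes with this ratio cannot be fully told apart from the diet here. Tfrc had the smallest p: it ran from 519 to 1616 on sucrose/oleate (median 797) and from 1539 to 4066 on starch/oleate (median 2542). These groups overlapped by a single pair of libraries, at 1.57 ± 0.19 (SE), adjusted p = 1.2e-07. Cd1d1 was lower by -1.36 ± 0.20 (SE), adjusted p = 5.4e-06, Bcap31 by -0.47 ± 0.07 (SE), adjusted p = 2.1e-05 and Cdh5 by -0.87 ± 0.15 (SE), adjusted p = 8.7e-05. The inhibitory receptor for immunoglobulin G, Fcgr2b (1.01), Cd4 (1.24) and Fcer1a (1.05) were higher, and the complement regulator Cd59b (-1.04), Cfb (-0.64), Itga6 (-0.69), Pparg (-0.73) and Cfd (-1.74) were lower. Of the B cell list 7 of 13 were higher, of the mast cell list 2 of 3, and of the endothelial list 5 of 10 lower. In the macrophage list 4 of 21 genes passed, with a median of 0.40, and in the lipid-associated one 0 of 4: Itgax was at -0.05 ± 0.31 (SE), adjusted p = 0.93 and Trem2 at 0.42 ± 0.28 (SE), adjusted p = 0.3. A difference that missed the threshold is not shown to be 0.

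Against starch/palmitate, the diet with its carbohydrate, 160 genes passed (32.6%), 119 higher (24.2%) and 41 lower (8.35%), with a median of 0.13. The positive control ratio was 2.92 to 3.16 on starch/palmitate, with a median of 3.04 against 3.16 on starch/oleate, so the same limit holds. Macrophage genes were higher in 15 of 21 cases with a median of 0.64, and 3 of 4 lipid-associated genes passed, with Trem2 at 1.06 ± 0.30 (SE), adjusted p = 0.0078 and Itgax at 0.92 ± 0.33 (SE), adjusted p = 0.031. Tgfbr1 ran from 1203 to 1803 on starch/palmitate and from 1853 to 3278 on starch/oleate. These ranges did not overlap, at 0.67 ± 0.13 (SE), adjusted p = 2.7e-04, and 9 of 18 genes of its list were higher. Klra8 (1.39), Crlf2 (0.55), the receptor of thymic stromal lymphopoietin, Il1a (1.53) and Npc1 (0.71) were among the higher genes. Tfrc was higher by 1.49 ± 0.21 (SE), adjusted p = 1.3e-06. The lower genes with the smallest p were Bcap31 (-0.56), Cd1d1 (-1.50), Cdh5 (-1.01), Cd164 (-0.83), H2-Q10 (-3.53) and Itga6 (-0.86). H2-Q10 held 8669 in 1 starch/palmitate library, against a group median of 351. The epithelium list also set apart starch/palmitate replicates 1 and 3, and its gene Pigr was lower by -4.87 (adjusted p = 3.9e-04). Without the set-apart libraries the calls were 116 higher and 40 lower. Of the MHC class II list 2 of 9 were lower, of class I 4 of 10, and Cfd was lower by -2.19. With TMM scaling the calls were 67 higher and 82 lower, and with positive control scaling 19 and 26.

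Several genes thus passed in each of the 3 contrasts of starch/oleate, which share its 9 libraries and are not independent. For Tfrc the median scaled counts were 972 on chow, 797 on sucrose/oleate, 893 on starch/palmitate and 2542 on starch/oleate. The ranges of the first 3 diets overlapped, and 7 of the 9 starch/oleate libraries lay above the highest chow library. For Cd1d1 the medians in the same order were 11433, 5007, 5769 and 2051. The starch/oleate range, 1051 to 2848, lay below that of sucrose/oleate, 3242 to 9144, and of starch/palmitate, 3067 to 7598. For Bcap31 the medians were 5976, 4003, 4436 and 3047, and no starch/oleate library reached the lowest of the other diets. Pparg followed the order 883, 588, 692 and 379, and Cdh5 the order 832, 569, 755 and 312. By contrast the Klra8 medians of 132 on sucrose/oleate and 184 on starch/oleate differed by 0.47 ± 0.22 (SE), adjusted p = 0.13, which missed the threshold.

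**Figure D5:**
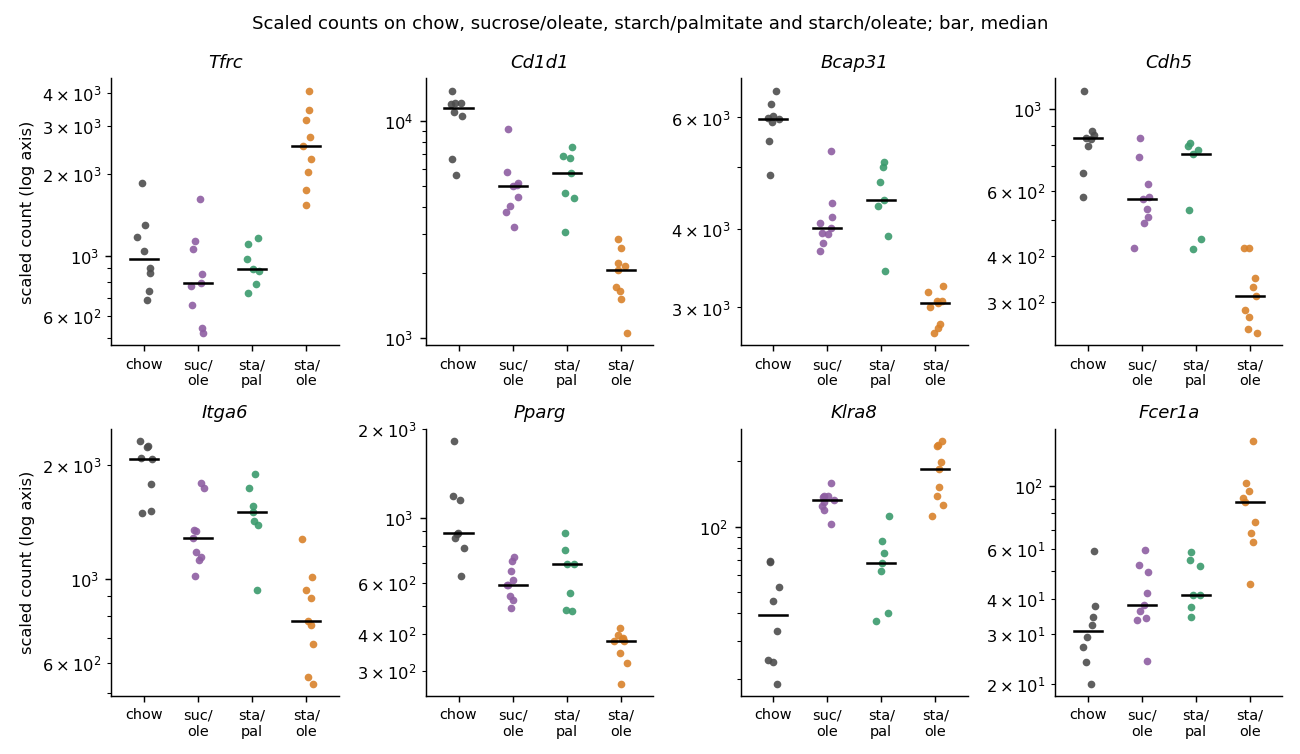
Scaled counts of 8 genes in each library on chow (grey, n = 8), sucrose/oleate (purple, n = 9), starch/palmitate (green, n = 7) and starch/oleate (orange, n = 9), on log axes; bars are medians. Tfrc and Fcer1a are highest and Cd1d1, Bcap31, Cdh5, Itga6 and Pparg lowest in median on starch/oleate, and Klra8 has medians of 132 and 184 on the oleate diets.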

How the data were processed

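Counts of barcodes per probe were deposited by the authors as 1 table, per the labels from total RNA of epididymal fat extracted with a lipid tissue kit. The values are whole numbers, not scaled between samples, and the counting software and its version are not given in the sources used here. Counts were divided by each library's factor from the geometric mean of the 14 reference genes, and 491 of 547 endogenous genes, those whose counts averaged 10 or more in the 48 samples, were tested. The test was edgeR's quasi-likelihood test (version 4.0.16 in R 4.3.3, functions glmQLFit then glmQLFTest), with 1 mean for each of the 6 diets fitted to all 48 samples, two-sided, with Benjamini-Hochberg adjustment over the 491 genes and a threshold of 0.05. Reference genes had a fit of their own. The fit was tested on simulated counts. Of 561 gene probes 558 matched a RefSeq table by accession or symbol, used for names only, and 13 symbols are older ones (Emr1 is now Adgre1). Every pair of the 17 chow and starch/oleate libraries differed by more than counting noise (lowest chi-square per degree of freedom 5.84 over 136 pairs).

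The rule for naming genes took the 12 highest and 12 lowest differences, up to 4 members of each list with the smallest adjusted p, a set of marker genes, the 6 smallest p in each direction of the direct comparisons, and the reference genes. Further list members and some other genes were picked after their values were seen, and a few genes are not reported here. The members, the rule and the 23 lists were chosen with earlier results of these data known. Alternatives were TMM scaling, positive control scaling, other filters, background subtraction, DESeq2 1.42.0, only the compared groups, the replicate number as a block, the positive control ratio or the lymph node list as a covariate, leaving out libraries with an epithelium list level over 3 median absolute deviations higher than the median library, and leaving out each library in turn. Replicate numbers did not pair the samples: the deviations of same-numbered chow and starch/oleate libraries had correlations of -0.13 to 0.20, with a mean of 0.04 over 8 pairs. Total counts limit the precision of low genes, and the negative controls set the level of background.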

Additional observations from a re-analysis of the deposited data

Results flagged for a closer look

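Of 396 sets of values, each a named gene in 1 of the 2 groups, 44 held a highest or lowest library far from the nearest of the others. The critical value used, Dixon's, is one that chance passes in about 1 in 20 groups of normally distributed values, and the rate for counts was not tested. Values are scaled counts.

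Chow replicate 4 was high in Cfd (222161, next 110122), Pparg (1826), Ptgs2 (330, next 56.7), Defb1 (221), Gata3 (197, next 43.6), Ceacam1 (303) and Kir3dl1 (106). It was low in Fcgr1 (78.7), Ccr2 (452, next 1029.8), Cd74 (9031) and H2-K1 (2814). The other chow libraries were high for Fcer1a (58.8), Ltb (119) and Tlr2 (130.1) in replicate 7, Il2ra (88.7) in replicate 8, Tigit (13.5) in replicate 5, Vtn (226) in replicate 1 and C6 (289) in replicate 2. They were low for Eef1g (1579.6) and Hif1a (718) in replicate 5 and Irak2 (889) in replicate 7.

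Starch/oleate replicate 1 was high in genes of neutrophils and of acute inflammation: S100a9 (1456, next 673), Cxcr2 (306), Csf3r (349.6), Il1b (161, next 64.3), Il6 (19.9), Ccl2 (1907) and Il33 (682), and in Tubb5 (2304). Replicate 5 was high in the lymphocyte genes Cd4 (139), Cd8a (31.3), Cd2 (261) and Ltb (284) and in Il10 (23.2). Replicate 6, which the epithelium list sets apart, was high in Pigr (223), C6 (178) and Ifngr1 (4098) and low in Cd97 (1530.5), Maf (243) and Lilrb4 (4721). Replicate 2, set apart likewise, was high in Stat2 (480.01) and Clu (4349). Marco (526) was high in replicate 8 and Stat3 (2064) in replicate 3.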

How the results depend on the processing

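Against chow, the total of 296 changed genes ran from 266 to 312 under the alternatives other than the lymph node covariate, which gave 151 (98 higher, 53 lower). TMM scaling moved the lower genes from 59 to 120 and positive control scaling to 35. Against sucrose/oleate (74 genes, 49 higher, 25 lower), positive control scaling gave 27 (13 and 14), only the compared groups 151 (118 higher), the lymph node covariate 36 (10 higher) and leaving out the set-apart libraries 112 (76 higher), while the lower genes were 49 with TMM and 16 with the positive control ratio as covariate. Against starch/palmitate (160 genes, 119 higher, 41 lower), positive control scaling gave 45 (19 and 26), the lymph node covariate 66 (24 higher) and TMM 67 higher and 82 lower. The cause of these moves was not tested. With each library left out in turn, the totals ran from 276 to 306, from 50 to 96 and from 120 to 192 in the 3 comparisons, the higher genes from 221 to 247, 27 to 73 and 83 to 151, and the lower genes from 52 to 61, 22 to 28 and 27 to 47. Higher genes against sucrose/oleate were 27 without sucrose/oleate replicate 6 and 32 without starch/oleate replicate 8, and lower genes against starch/palmitate were 27 without starch/palmitate replicate 3. With the replicate block the counts were 289 (233 higher, 56 lower), 61 (37 and 24) and 137 (103 and 34); the numbers share no pairing.

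Of 154 named genes called against chow, 83 kept their call under each alternative tried and 143 under each left-out library. With direction kept, 56 lost it under the lymph node covariate and 14 under TMM. Genes that turned in direction are counted apart from these. Of them Il1b, Ms4a1, Cfp, Tlr4, Cd79b and Ccl12 under that covariate also no longer passed. The same held for Cd97, Stat6 and Itgb1 under TMM. Directions turned under the lymph node covariate for C3 (-0.52), Il1b (-0.19), Marco (-1.62), Ms4a1 (-0.11), Cfp (-0.15), Tlr4 (-0.021), Cd79b (-0.19) and Ccl12 (-0.017). Cxcl13 turned there too (-1.30), but it is a member of that list, as are Ccr7, Ltb and Il7r among the 56 lost calls. The covariate holds the levels of these genes themselves, so their changes are partly built in. With TMM, Cd97 (-0.051), Stat6 (-0.073), Itgb1 (-0.11) and Stat3 (-0.29) turned. Pigr (-1.68) turned without the set-apart libraries, but it is a member of the list that sets them apart. In the direct comparisons 10 of 12 and 11 of 12 named genes kept their calls under each alternative, with Cd97, Maf and Crlf2 losing theirs with positive control scaling. Genes near the negative control mean of 7.40, such as Cd8a, Gzmb, Ifng and C9, are limited by background.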

Other observations

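Genes outside the lists also moved with small p-values, and were picked after their values were seen. Tnfrsf11a, the receptor RANK that drives osteoclast formation and is carried by myeloid cells, ran from 78.7 to 219.7 scaled counts on chow and from 276 to 465 on starch/oleate. The groups did not overlap, and the log2 difference was 1.41 ± 0.19 (SE), adjusted p = 6.4e-08. Entpd1, the ectonucleotidase CD39 that degrades extracellular ATP, was higher by 0.81 (adjusted p = 1.7e-07), also without overlap, and Crlf2 by 0.76 (adjusted p = 2.0e-08). Ctnnb1, which encodes beta-catenin, was higher by 0.60 ± 0.07 (adjusted p = 8.8e-09), with ranges that touched: the highest chow library held 6952 and the lowest starch/oleate library 6898.

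In the other direction, Notch1, a receptor of cell fate and vessel growth, ran from 374 to 652 on chow and from 235 to 303 on starch/oleate. It was lower by 0.80 (the log2 difference was -0.80 ± 0.14, adjusted p = 5.5e-06) in 9 of 9 libraries. Zeb1, a transcription factor of mesenchymal and fat cells, differed by -0.56 (adjusted p = 2.5e-05) and did not overlap either. Hif1a, a transcription factor of the response to low oxygen, differed by -0.31 (adjusted p = 0.0035), and did not pass with positive control scaling or the lymph node covariate. Kir3dl1, a receptor gene of natural killer cells, differed by -1.53, with a starch/oleate median of 10.9 close to the negative controls. Ccrl1, a scavenging chemokine receptor, differed by -1.15 (adjusted p = 0.0095) and did not pass with the lymph node covariate.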
